A study of Homo sapiens with 6 samples.

Results

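The genes described here are 32 targets of the tumour suppressor p53 other than CDKN1A, taken as the rows of the counts table whose Entrez ID maps to the listed symbols. All 32 were found among the 28395 genes of the table, and 31 passed the filter on low counts. Their RNA was counted in TC28a2, a line of immortalised human chondrocytes, transfected with an FAP overexpression vector (3 libraries) or with a control vector (3 libraries). FAP (fibroblast activation protein) is a serine protease of the cell surface. RNA was taken 48 hours after transfection and sequenced by DRUG-seq, in which many samples are barcoded and sequenced together at low cost. Both groups share the cell line and a transfection, and no untransfected cells were analysed here. The line is generally described as immortalised with the SV40 large T antigen, a viral protein that binds p53 and restrains its activity. The promoter that drives FAP is not given in the labels.

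The protein p53 is a transcription factor that is kept scarce by the ubiquitin ligase MDM2 and builds up after DNA damage and other stress. It binds DNA as a tetramer at pairs of decamer half-sites near its target genes. The targets include its own inhibitors, cell death proteins, brakes on the cell cycle, DNA repair factors and metabolic enzymes. In ageing and osteoarthritic cartilage the p53 pathway is studied as one route into senescence.

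Short stretches that match the p53 half-site decamer are shown because they are a property of these genes that their selection did not use directly. RefSeq promoter windows of GRCh38.p14, from 250 bases before to 50 bases after each listed start, were present for 26 of the 32 genes in 38 windows. They were searched for the half-site decamer, which reads the same on both strands, and for 2 directly adjacent half-sites with at most 2 mismatches outside the fixed C and G of each core. A half-site occurred in the windows of 6 of the 26 genes (23.1%), against 2202 of all 27305 genes with a window (8.06%). The 2 adjacent half-sites occurred in 4 of the 26 (15.4%), against 98 of all genes (0.359%). A match is a description of the letters and not evidence of binding in these cells, and since such genes are known as targets partly through these sites, the higher share is no independent finding. Capitals mark the matched bases, with adjacent half-sites in the first 4 lines and a single half-site in the others.
MDM2: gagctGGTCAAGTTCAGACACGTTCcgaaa
FAS: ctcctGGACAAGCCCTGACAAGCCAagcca
DDB2: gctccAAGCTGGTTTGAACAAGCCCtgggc
AEN: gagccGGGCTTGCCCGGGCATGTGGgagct
DDB2: gccctGGGCATGTTTggcgg
PLK2: ggacaAGACTTGCTTcccgg
SESN1: cgtctGGACAAGTCTccaca
FDXR: ggagcGGGCTTGCCCtgcgg

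The MDM2 stretch is chr12:68808918-68808947 on the plus strand, in an intron of MDM2 by GENCODE 29, upstream of an internal start. The FAS stretch, chr10:88991304-88991333 on the plus strand, and the AEN stretch, chr15:88621301-88621330 on the plus strand, lie before a listed start and overlap an exon of another transcript form. The DDB2 stretches, chr11:47214964-47214993 and chr11:47214985-47215004 on the plus strand, lie across and just after a start and overlap an exon. The PLK2 stretch, chr5:58460204-58460223, and the FDXR stretch, chr17:74872991-74873010, are on the minus strand and overlap an exon. The SESN1 stretch, chr6:109009023-109009042 on the minus strand, is in an intron. The 7 genes with a match did not share a direction between the groups. Their log2 fold changes, FAP minus control, were -0.055 for MDM2, 0.0039 for FAS, -0.30 for DDB2, -0.28 for AEN, -0.030 for PLK2, 0.20 for SESN1 and 0.028 for FDXR.

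Total counts ran from 6275038 to 13839743 in FAP libraries and from 5736056 to 12446373 in control libraries. FAP itself had 1396, 3182 and 4733 counts in the FAP libraries and 0, 11 and 5 in the control libraries, so all 6 libraries matched their labels. Among FAP libraries, replicate 3 was the most distant, at a chi-square per degree of freedom of 16.2 from replicate 1 and 15.5 from replicate 2, against 5.74 between replicates 1 and 2. By this measure FAP replicates 1 and 2 were nearer to every control library (7.6 to 12.8) than to FAP replicate 3. Whether replicates were separate cultures is not stated in the labels, and the p-values reflect only the scatter of these libraries, which may be technical. Of 16 cartilage markers only SOX9 was measured well enough to be tested, and COL2A1 had at most 4 counts in a library. The 16 summed to 35.2 to 45.7 CPM in FAP libraries and 27.4 to 36.5 CPM in controls. All 5 fibroblast markers were tested, and they summed to 117.5 to 132.1 CPM in FAP libraries and 120 to 131.9 CPM in controls. PDGFRB and THY1 made up most of that sum, while LUM and DCN had 1 to 26 counts. Of 3 markers of other cells, PTPRC (leukocytes) and EPCAM (epithelium) had at most 4 counts in any library. The endothelial marker PECAM1 had 12, 20 and 24 counts in FAP libraries and 1, 4 and 9 in control libraries, and the 3 markers summed to 1.62 to 2.71 CPM in FAP libraries and 0.183 to 0.874 CPM in controls. The part of such RNA in the values below was not tested.

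None of the 31 tested p53 target genes passed the test between FAP and control libraries. Of all 13373 genes tested, 30 passed (0.224%), so a list of this length would hold few calls at that rate. The test was edgeR's quasi-likelihood test at an adjusted p under 0.05 over all genes tested, and the smallest adjusted p among the 31 was 0.216, for PLK3. Log2 fold changes were positive in 15 genes, against 50.7% of all genes, and negative in 16, with a median of -0.030, against 0.0031 over all genes tested. An unadjusted p under 0.05 was reached by 7 of the 31 (22.6%), against 9.91% of all genes. Among these 7, CCNG1 and BTG2 were higher in FAP libraries (4.61% of all genes had such a p and were higher), and PLK3, SERTAD1, AEN, GADD45A and DDB2 were lower (5.30% of all genes). In these bulk libraries fewer cells with a transcript and less of it per cell cannot be told apart.

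A p that misses the threshold does not show equal levels, so the intervals are given too. The 95% interval of the log2 fold change lay within a 2-fold change on both sides in 28 of the 31 genes, against 81.3% of all genes tested. The exceptions were EDA2R, BAX and BTG2, whose intervals reached 1.47, 2.05 and 1.72. The interval lay within a 1.5-fold change in 19 genes, a count for which the share of all genes was not computed. The groups did not overlap in 6 of the 31 (19.4%), against 16.0% of all genes. In BTG2 all FAP libraries lay above the controls (7.96% of all genes), and in PLK3, SERTAD1, AEN, GADD45A and PHLDA3 all lay below (7.99% of all genes).

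**Figure D1:**
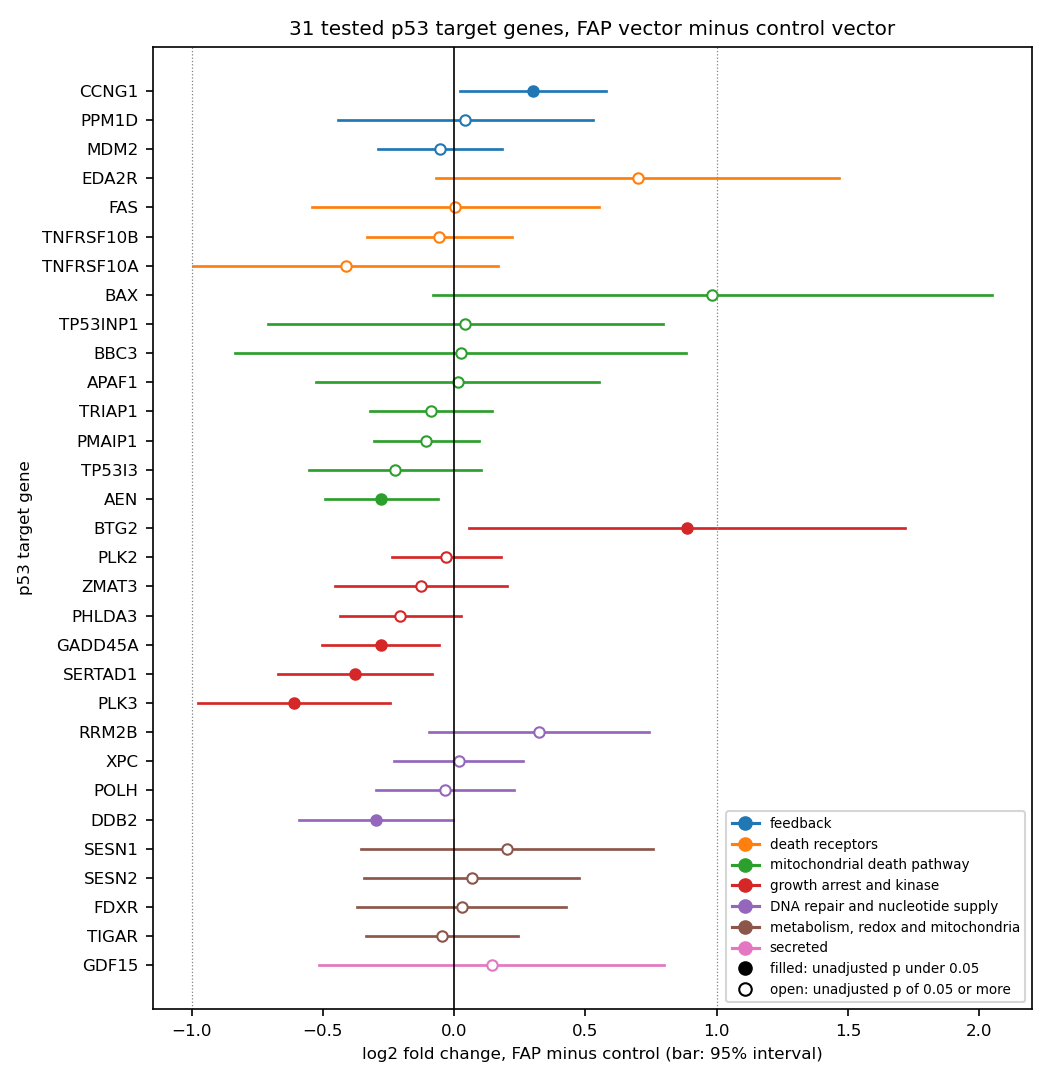
Log2 fold change (x axis, FAP minus control) of the 31 tested p53 target genes (y axis), coloured by role, with bars for the 95% interval and filled points for an unadjusted p under 0.05. The 7 filled points are CCNG1 and BTG2 to the right of 0 and AEN, GADD45A, SERTAD1, PLK3 and DDB2 to the left, and the dotted lines mark a 2-fold change.

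Genes that feed back on p53 showed no common direction. MDM2, the ubiquitin ligase that degrades p53 (Entrez 4193; GRCh38.p14 chromosome 12, 68808172 to 68850686), was at 48.4, 44.8 and 50.8 CPM in FAP replicates 1 to 3 and at 44.4, 52.99 and 51.4 CPM in control replicates 1 to 3. CPM are counts relative to library size after TMM scaling, a correction for library composition. The FAP values lay inside the range of the controls, and the log2 fold change was -0.055 (SE 0.11, 95% interval -0.29 to 0.18, adjusted p = 0.908). CCNG1, cyclin G1, a partner of a phosphatase that acts on MDM2 (Entrez 900; chromosome 5, 163437571 to 163457640), was at 38.1, 39.3 and 34.9 CPM in FAP libraries and at 24.7, 30.0 and 35.3 CPM in controls. The third FAP value lay just under the highest control, and the log2 fold change was 0.30 (SE 0.13, unadjusted p = 0.0355, adjusted p = 0.460). PPM1D, a phosphatase that shuts off damage signalling to p53, stood at 0.043 on the log2 scale (FAP minus control, adjusted p = 0.971).

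The 4 death receptor genes did not pass the test. FAS, the receptor of FAS ligand (Entrez 355; chromosome 10, 88964050 to 89017059), was at 5.43, 4.45 and 5.34 CPM in FAP libraries and 5.66, 4.37 and 5.14 CPM in controls. Both groups had nearly the same mean, 5.07 ± 0.541 CPM and 5.06 ± 0.650 CPM (SD, n = 3 each), and the log2 fold change was 0.0039, with an interval of -0.54 to 0.55 (adjusted p = 0.998). TNFRSF10B and TNFRSF10A, receptors of the death ligand TRAIL, had log2 fold changes of -0.056 and -0.41 (adjusted p = 0.924 and 0.655). TNFRSF10A was at 4.15, 5.44 and 7.26 CPM in FAP libraries and at 11.1, 5.14 and 7.36 CPM in controls. Its value leaned on control replicate 1, without which the log2 fold change was -0.13. EDA2R, a receptor of an ectodysplasin form, was at 4.31, 3.53 and 4.89 CPM in FAP libraries and 3.84, 1.20 and 3.01 CPM in controls (log2 fold change 0.70, adjusted p = 0.549). Its lowest FAP value lay below the highest control. The log2 fold change of EDA2R was 0.34 without control replicate 2, its lowest library, and 0.96 without control replicate 1.

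Among the genes of the mitochondrial death pathway, 4 had positive and 4 negative log2 fold changes. PMAIP1 (NOXA), a BH3-only protein that frees the pore-forming BCL2 relatives, had the most counts of the 31 genes, not scaled to transcript length. It was at 347, 331 and 308 CPM in FAP libraries and at 360.4, 338 and 362 CPM in controls (log2 fold change -0.11, 95% interval -0.31 to 0.09, adjusted p = 0.753). AEN, a nuclease that enhances apoptosis (Entrez 64782; chromosome 15, 88604683 to 88632281), was at 54.6, 54.9 and 59.4 CPM in FAP libraries and at 72.3, 65.0 and 68.0 CPM in controls. The FAP values lay below all controls, at a log2 fold change of -0.28 (SE 0.10, unadjusted p = 0.0149, adjusted p = 0.373). APAF1, the core of the apoptosome, TP53I3, a quinone oxidoreductase, TP53INP1, a stress protein, and TRIAP1, an inhibitor of apoptosis, had log2 fold changes of 0.013, -0.23, 0.043 and -0.087. None of these 4 had an adjusted p under 0.662.

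BAX, which forms pores in the outer mitochondrial membrane (Entrez 581; chromosome 19, 48954875 to 48961798), had a single library far from the rest. FAP replicate 1 held 196 BAX counts, or 31.3 CPM, while FAP replicates 2 and 3 held 71 and 59 counts, or 5.01 and 4.37 CPM. The controls held 49, 55 and 58 counts, or 8.95, 6.01 and 4.59 CPM. FAP replicate 1 was 3.49 times the next library, and FAP replicates 2 and 3 lay among or below the controls. Among the 10221 genes that averaged 5 CPM or more, only BAX and CTSZ were at least 3-fold above every other library in FAP replicate 1, and 1 gene was so in FAP replicate 2 and none in any other library. The log2 fold change of BAX was 0.98 (SE 0.51, adjusted p = 0.540). It was -0.42 without FAP replicate 1 (adjusted p = 0.678) and 1.44 without FAP replicate 3, where it passed (adjusted p = 0.0140) in a fit that called 1.86% of all genes. It also passed with no filter on low counts (0.98, adjusted p = 0.00384), where 0.718% of all genes were called, on the same counts. BBC3 (PUMA), a BH3-only activator of BAX, was likewise highest in FAP replicate 1. It was at 7.02, 3.60 and 1.48 CPM in FAP libraries and 3.47, 3.50 and 4.04 CPM in controls (log2 fold change 0.025, adjusted p = 0.992), so its FAP values lay on both sides of the controls.

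**Figure D2:**
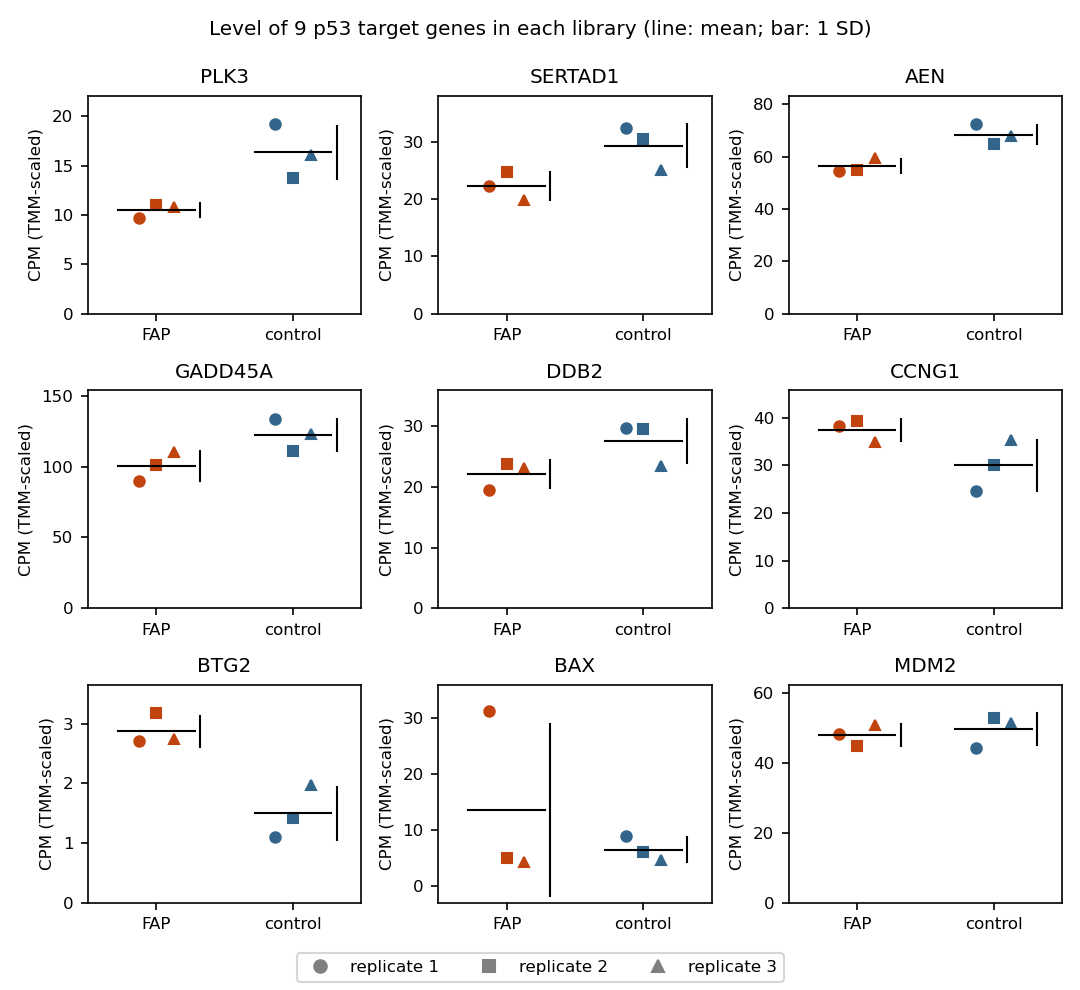
TMM-scaled CPM (y axis) of 9 p53 target genes in the 3 FAP libraries (left in each panel) and the 3 control libraries (right), with marker shape for the replicate, a line for the mean and a bar for 1 SD. PLK3, SERTAD1, AEN and GADD45A lie lower in every FAP library, BTG2 lies higher in every FAP library, and BAX has 1 FAP library at 31.3 CPM.

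None of the 7 genes grouped under growth arrest and kinases passed the test. The heading does not mean that each of them slows the cell cycle. Of these 7 genes 6 had negative log2 fold changes (median -0.20). The groups did not overlap in 5, 1 higher and 4 lower in FAP libraries, against 16.0% of all genes, 7.96% higher and 7.99% lower. These 5 are among the 6 counted above over the 31 genes, and the 7 were not tested as a group. PLK3, a polo-like kinase of the stress response (Entrez 1263; chromosome 1, 44800377 to 44805990), was at 9.73, 11.0 and 10.8 CPM in FAP libraries and at 19.2, 13.8 and 16.1 CPM in controls. The FAP libraries lay close together and below all controls (10.5 ± 0.688 CPM and 16.3 ± 2.72 CPM, SD, n = 3 each). The log2 fold change was -0.61 (SE 0.18, 95% interval -0.98 to -0.25, unadjusted p = 0.00229, adjusted p = 0.216). SERTAD1, which binds the cyclin-dependent kinase CDK4 (chromosome 19, 40421589 to 40425992), was at 22.3, 24.8 and 19.9 CPM in FAP libraries and at 32.3, 30.4 and 25.1 CPM in controls. The highest FAP value lay just under the lowest control (log2 fold change -0.38, SE 0.14, adjusted p = 0.369).

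GADD45A, a small stress protein that binds PCNA (chromosome 1, 67685201 to 67688334), had larger counts and a smaller difference. It was at 89.7, 101 and 110.5 CPM in FAP libraries and at 133, 111 and 123 CPM in controls. FAP replicate 3 and control replicate 2 differed by less than 1 CPM (110.5 and 110.7), and the log2 fold change was -0.28 (SE 0.11, unadjusted p = 0.0163, adjusted p = 0.385). BTG2, an antiproliferative protein that recruits an mRNA deadenylase (chromosome 1, 203305519 to 203309602), stood on the other side at low counts. It held 17, 45 and 37 counts in FAP libraries (2.71, 3.18 and 2.74 CPM) and 6, 13 and 25 in controls (1.10, 1.42 and 1.98 CPM). All FAP values lay above the controls (log2 fold change 0.89, SE 0.40, unadjusted p = 0.0377, adjusted p = 0.465). PHLDA3, an inhibitor of AKT, was at 57.8, 68.0 and 77.5 CPM in FAP libraries and 78.2, 79.1 and 78.3 CPM in controls (log2 fold change -0.20, adjusted p = 0.557). Its controls differed by less than 1 CPM while FAP replicate 3 lay beside them.

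ZMAT3, an RNA-binding zinc finger protein (Entrez 64393; chromosome 3, 179017223 to 179072513), was at 14.4, 16.5 and 16.2 CPM in FAP libraries and 19.0, 14.8 and 18.1 CPM in controls. These overlapped (log2 fold change -0.13, SE 0.16, adjusted p = 0.832). PLK2, a polo-like kinase related to PLK3, had a log2 fold change of -0.030, with a 95% interval of -0.24 to 0.18 (adjusted p = 0.948).

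DNA repair genes lay on both sides of 0. DDB2, a sensor of ultraviolet lesions (chromosome 11, 47214454 to 47239217), was at 19.5, 23.8 and 23.1 CPM in FAP libraries and at 29.8, 29.6 and 23.4 CPM in controls. The second FAP value passed the lowest control (log2 fold change -0.30, SE 0.14, unadjusted p = 0.0479, adjusted p = 0.496). XPC, which recognises the same kind of damage, and POLH, a polymerase that copies past lesions, had log2 fold changes of 0.017 (95% interval -0.23 to 0.26) and -0.035 (-0.30 to 0.23). RRM2B, a ribonucleotide reductase subunit that supplies nucleotides for repair (Entrez 50484), was at 17.5, 14.1 and 17.6 CPM in FAP libraries and at 7.85, 15.7 and 14.5 CPM in controls. Control replicate 1 was low and the others overlapped the FAP libraries. The log2 fold change was 0.32, with an interval of -0.10 to 0.74 (adjusted p = 0.626), and 0.11 without control replicate 1.

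The metabolic targets and the secreted target showed small differences. The 95% interval lay within a 2-fold change in all 4 tested metabolic targets, against 81.3% of all genes. It lay within a 1.5-fold change in 3 of them, with no share of all genes computed. It was widest for SESN1 (-0.356 to 0.757) and for the secreted GDF15 (-0.515 to 0.799). SESN1 and SESN2, sestrins that restrain mTORC1, had log2 fold changes of 0.20 and 0.066 (adjusted p = 0.843 and 0.942). TIGAR, a phosphatase that lowers glycolytic flux, and FDXR, a mitochondrial ferredoxin reductase, had -0.045 and 0.028 (adjusted p = 0.944 and 0.978). SPATA18, a factor of mitochondrial quality control, held 3, 9 and 8 counts in FAP libraries and 3, 3 and 11 in controls and was removed by the low-count filter. GDF15, a stress-induced secreted protein of the TGF-beta family (Entrez 9518; chromosome 19, 18386158 to 18389176), held 20, 79 and 47 counts in FAP libraries and 26, 33 and 41 in controls. That was 3.19, 5.58 and 3.48 CPM in FAP libraries and 4.75, 3.61 and 3.25 CPM in controls, which overlapped (log2 fold change 0.14, SE 0.32, adjusted p = 0.914).

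**Figure D3:**
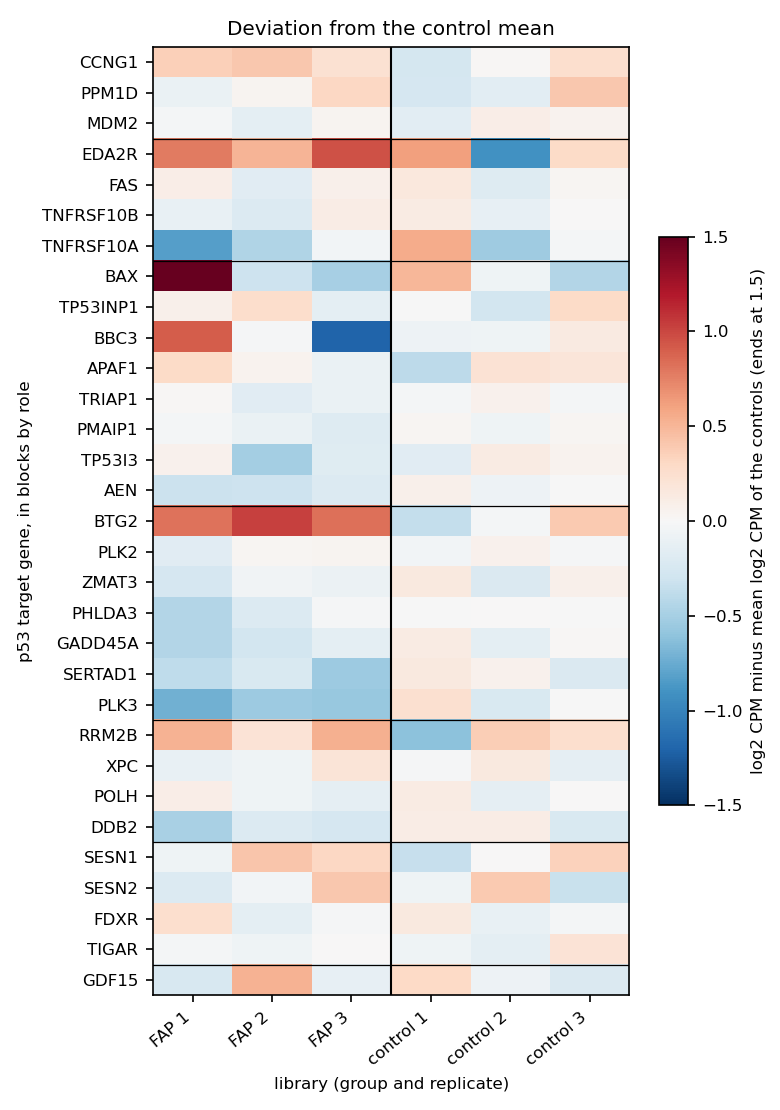
Log2 CPM of each tested p53 target gene (rows, in blocks by role) in each library (columns) minus the mean log2 CPM of the 3 controls, with colours ending at 1.5. BAX and BBC3 stand out in FAP replicate 1, BBC3 is lowest in FAP replicate 3, and PLK3 is low in all 3 FAP libraries.

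The highest library was under 1.5 times the lowest within both groups in 19 of the 31 genes, within FAP libraries in 26 and within controls in 21. The same share over all genes was not computed, so these counts need not be particular to p53 targets. The widest ratios were 7.15 for BAX and 4.74 for BBC3 among FAP libraries and 3.19 for EDA2R among controls. The median of log2 CPM minus the control mean over the 31 genes was -0.033, -0.063 and -0.046 in FAP replicates 1 to 3. In control replicates 1 to 3 it was -0.0036, -0.062 and 0.014, so the groups overlapped by this measure. In FAP replicates 1 to 3, 10, 10 and 12 of the 31 genes lay below all controls (32.3%, 32.3% and 38.7%), against 30.7%, 25.9% and 28.4% of all genes tested. Above all controls lay 8, 4 and 5 (25.8%, 12.9% and 16.1%), against 30.7%, 25.5% and 29.6% of all genes. The difference from these shares was not tested.

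The regulators of p53 gave no called gene either. Of 20 listed regulators 18 were tested, with 9 positive and 9 negative log2 fold changes (median -0.0077), and 2 had an unadjusted p under 0.05 (11.1%, against 9.91% of all genes). MDM4, the relative of MDM2 that blocks p53, was at -0.029 on the log2 scale (adjusted p = 0.964). PRMT5, an arginine methyltransferase, and CHEK2, a damage kinase, had 1.00 (adjusted p = 0.423) and 0.30 (adjusted p = 0.556), with PRMT5 at 4 to 64 counts. On the negative side the kinases HIPK2 and TP53RK had -0.17 and -0.16 and RPL11, a ribosomal protein that holds MDM2 back, had -0.14 (adjusted p = 0.638, 0.661 and 0.710).

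CDKN1A, the best known p53 target and a cell cycle inhibitor, was at 72.9, 73.5 and 81.3 CPM in FAP libraries and at 85.9, 94.8 and 97.9 CPM in controls. The FAP values lay below all controls (log2 fold change -0.29, SE 0.10, adjusted p = 0.332). A further 42 p53 targets from general knowledge gave 39 tested genes and no call. Their log2 fold changes were positive in 17 and negative in 22 (median -0.022), with an unadjusted p under 0.05 in 5 (12.8%) and no overlap of the groups in 10 (25.6%, against 16.0% of all genes), 2 higher and 8 lower in FAP libraries. PTPRE, a tyrosine phosphatase, had 25.7 ± 1.13 CPM in FAP libraries and 17.8 ± 3.48 CPM in controls (SD, n = 3 each; log2 fold change 0.51, adjusted p = 0.230 by edgeR). The GTPase RAP2B and TRIM22, an interferon-inducible protein, had 0.30 and 0.57 (adjusted p = 0.434 and 0.616). FUCA1, a lysosomal fucosidase, had -0.55 and SFN, the cell cycle inhibitor 14-3-3 sigma, had -0.66 (adjusted p = 0.272 and 0.320).

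The number of low unadjusted p-values differed between alternatives. Without control replicate 1, the shallowest library, 2 of the 31 genes had an unadjusted p under 0.05 (PLK3 and EDA2R), against 6.77% of all genes. In that fit, with fewer libraries, most of the 7 genes with a low p in all 6 libraries had log2 fold changes near those above, such as -0.24 for AEN, -0.22 for GADD45A, -0.31 for SERTAD1, -0.25 for DDB2 and 0.75 for BTG2. CCNG1 had 0.19. Without control replicate 2 there were 4 (6.45% of all genes), and with library totals in place of TMM also 4 (10.6% of all genes). PLK3 had an unadjusted p under 0.05 in all 13 alternatives, with log2 fold changes from -0.72 to -0.50 and adjusted p-values from 0.0986 to 0.645, none past the threshold. AEN, GADD45A and SERTAD1 kept a negative sign in all 13. DESeq2 gave an adjusted p for 19 of the 32 genes and called none of them, against 1.16% of all genes with an adjusted p.

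**Figure D4:**
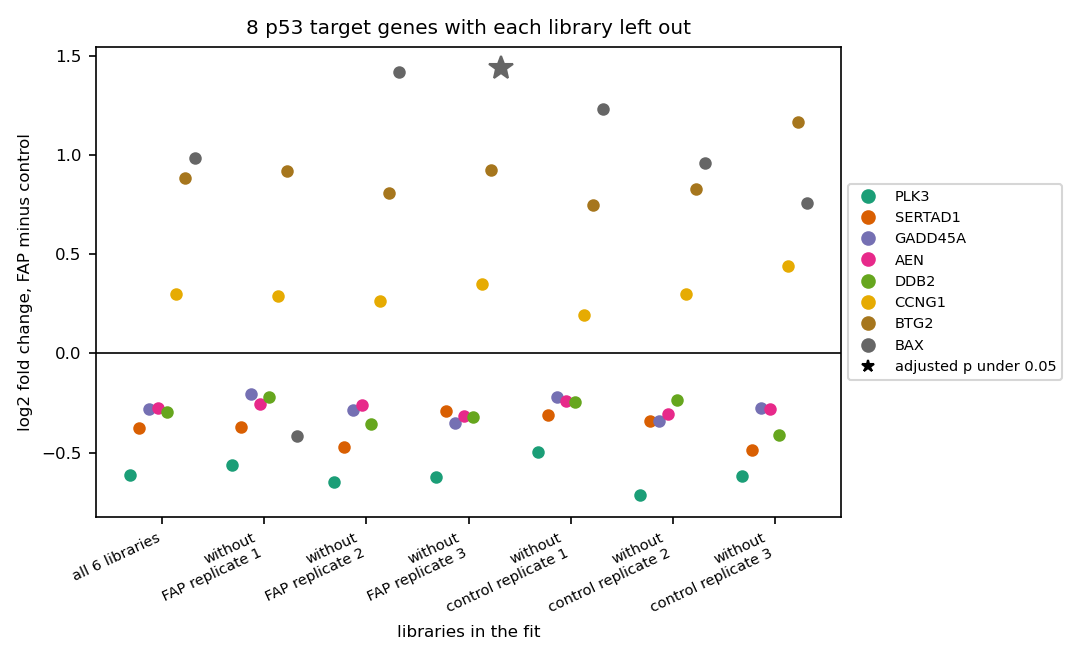
Log2 fold change (y axis, FAP minus control) of 8 p53 target genes in the fit of all 6 libraries and with each library left out (x axis), with a star for an adjusted p under 0.05. PLK3 stays between -0.72 and -0.50, and BAX runs from -0.42 without FAP replicate 1 to 1.44 without FAP replicate 3, the 1 star.

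Counting limits touch some of these genes. By gene span, 7 of the 32 overlap another gene of at least 1 CPM, namely MDM2, CCNG1, FAS, TNFRSF10B, TP53INP1, POLH and SESN1. The strand setting is not given in the sources used here, so reads of such pairs may be mixed. CCNG1, at 33.7 CPM over all libraries, overlaps NUDCD2 at 48.7 CPM (log2 fold change 0.006). TP53INP1, at 2.65 CPM, overlaps NDUFAF6 at 20.8 CPM (0.008), so its value is uncertain.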

How the data were processed

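RNA of TC28a2 cells was measured in 3 FAP vector and 3 control vector libraries, grouped by their titles. The authors deposited raw read counts per Entrez gene, with 1 column per sample. HISAT2, featureCounts, Subread and GRCh38 are named in the submitters' processing notes. No version, strand setting or use of molecular identifiers is stated there, and without identifiers amplification copies count as separate reads. Aligner options were not given in the sources used here. Of 28395 IDs 27745 matched a symbol in the RefSeq gene table (GRCh38.p14).

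Counts were fitted with edgeR 4.0.16 in R 4.3.3 (TMM, filterByExpr with minimum count 10 and minimum total 15, two-sided quasi-likelihood F test, Benjamini-Hochberg over 13373 genes, no covariate). The SE is the log2 fold change over the square root of F, and 95% intervals use the test's degrees of freedom. Alternatives were DESeq2 1.42.0, limma-voom 3.58.1, other scalings and filters, a replicate block and each library left out. The fits were tested on simulated data. Figures used matplotlib 3.10.9.

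The genes, their roles and the other lists were chosen with earlier results of these data known. Values per library are given for genes with an unadjusted p under 0.05, for MDM2, BAX, BBC3, FAS, GDF15, CCNG1, ZMAT3, RRM2B and CDKN1A, and for some others chosen after their values were seen; of the regulators and further targets the 3 with the smallest p in each direction are named. A few genes on these lists go unnamed in the text but are part of the counts. No 2 replicates were duplicates: the chi-square per degree of freedom between libraries of a group was at least 5.21.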

Additional observations from a re-analysis of the deposited data

How the results depend on the processing

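With all libraries, edgeR called 30 genes and none of the 31 p53 targets. Over all genes the count was 19 with library totals, 152 with no low-count filter and 98 with DESeq2, and it ran from 3 to 248 with a library left out. The count of p53 targets called was 1 with no filter, and 0 to 1 with a library left out, the gene being BAX; DESeq2 gave no adjusted p for 13 of the 32, BAX among them. An unadjusted p under 0.05 was held by 4 with library totals (10.6% of all genes) and 4 with DESeq2 (4.96% of all genes with a p). With a library left out it was held by 2 to 8, against 6.45% to 12.8% of all genes. The 8 came without FAP replicate 3, the fit with 12.8%. The median log2 fold change of -0.030 became 0.026 with library totals, which moved the median of all genes to 0.057, and -0.066 with at least 10 CPM in 3 libraries, and it ran from -0.073 to -0.020 with a library left out. The regulators had 1 call with no filter, and the further targets 1 with DESeq2 and 0 to 1 with a library left out. Of the 31 targets, 17 kept their sign in every alternative that measured them and 14 did not, of which 12 had a log2 fold change under 0.1 in size with all libraries. Among the genes followed singly, signs turned for BAX, BBC3, FAS, GDF15 and the regulator MDM4. BAX ran from -0.42 (without FAP replicate 1) to 1.44 with a library left out. BBC3 was at -0.37 with limma-voom and -0.13 with the replicate block, and at -0.53 to 0.45 with a library left out. FAS was at -0.0040 with limma-voom and at -0.086 to 0.097 with a library left out. GDF15 ran from -0.17 to 0.29 with a library left out. MDM4 was at 0.025 with library totals and at -0.097 to 0.061 with a library left out. The cause of these turns was not tested. The sign of BAX turned only without FAP replicate 1, its single high library. With the replicate number as a block, 44 genes and none of the p53 targets were called; deviations of same-numbered libraries correlated at -0.004, 0.020 and -0.004, so the numbers were not taken as pairs. Depth limits genes with few counts, such as BTG2, GDF15 and SPATA18.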
